A study of Mus musculus with 4 samples.

Results

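The receptor CSF1R, its ligands and the genes that mark resting microglia were followed in nuclei of the mouse hippocampus. They were taken by gene name and are 9 of the 56748 genes counted: Csf1r, Csf1, Il34, Cx3cr1, Cx3cl1, P2ry12, Tmem119, Trem2 and Siglech. RNA molecules with a unique molecular identifier (UMIs) were counted per nucleus in 8 pools, 1 for each condition, and each pool joined the hippocampi of 3 male mice. Control-Vehicle and Stress-Vehicle mice ate AIN-76A chow, and Control-PLX5622 and Stress-PLX5622 mice ate that chow with 1200 mg/kg of PLX5622, an inhibitor of the CSF1R kinase, from 7 days before stress. The mice of Con-IL-1R1+/+ and Stress-IL-1R1+/+ were Cre-negative, whereas those of Con-nIL-1R1-/- and Stress-nIL-1R1-/- carried a Vglut2-driven Cre that removes Il1r1 from the glutamatergic lineage and leaves it in other cells. Stress was repeated social defeat (RSD) by a CD-1 aggressor, 2 h a night over 6 nights, and control mice stayed undisturbed. The genotype pools were collected 14 h after RSD. The study's diet experiment used C57BL/6 mice bought at 5 to 7 weeks of age, but the labels give neither strain nor age for these pools.

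CSF1R is a receptor tyrosine kinase on which microglia depend for survival, and it is bound by colony stimulating factor 1 (Csf1) and interleukin 34 (Il34), which forebrain neurons are known to make. Fractalkine (Cx3cl1) is a chemokine carried by neurons, and its receptor Cx3cr1 sits on microglia. P2ry12 senses purine nucleotides at microglial processes, Tmem119 is a surface protein of resident microglia, Trem2 is a lipid-sensing receptor that signals through Tyrobp, and Siglech is a sialic acid-binding lectin.

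After nuclei with over 20% mitochondrial UMIs were left out, 56834 nuclei remained, 5858 to 8474 per pool. Total UMIs ran from 7534594 to 58081835 per pool, and both PLX5622 pools were the shallowest, with median UMIs per nucleus of 598 and 628 against 1326 to 5012 in the others, so diet and depth cannot be told apart beyond the scaling to a common total. Il1r1 stood at 5.27 and 4.93 CPM (counts per 1000000 UMIs) in the nIL-1R1-/- pools and at 11.98 to 25.9 CPM in the other 6. Each condition is 1 pool, so a p-value below rests on the spread between pools, and each 95% interval covers counting error only.

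The promoters of Siglech, Trem2 and Cx3cl1 are shown. The first pair are genes of microglia that were low with PLX5622, and the last is a neuronal gene whose level stayed near the same. Cx3cr1 and P2ry12, also microglial genes and lower with PLX5622, are not shown. The sequences are from RefSeq (GRCm38.p6), from 250 bases before to 50 after the start, 5′ to 3′, and 6 of the 9 genes matched that table; Csf1r, Il34 and Tmem119 did not. Capitals mark GAGGAA or its reverse complement TTCCTC, the core of the sites bound by PU.1, a transcription factor of myeloid cells. The windows are chr7:55767934-55768233, plus strand for Siglech, chr17:48346151-48346450, plus strand for Trem2 and chr8:94771930-94772229, plus strand for Cx3cl1.
Siglech: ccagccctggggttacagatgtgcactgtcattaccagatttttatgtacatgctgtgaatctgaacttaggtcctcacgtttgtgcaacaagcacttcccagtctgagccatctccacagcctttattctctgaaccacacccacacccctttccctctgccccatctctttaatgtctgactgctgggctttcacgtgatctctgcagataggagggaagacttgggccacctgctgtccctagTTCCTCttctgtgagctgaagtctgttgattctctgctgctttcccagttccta
Trem2: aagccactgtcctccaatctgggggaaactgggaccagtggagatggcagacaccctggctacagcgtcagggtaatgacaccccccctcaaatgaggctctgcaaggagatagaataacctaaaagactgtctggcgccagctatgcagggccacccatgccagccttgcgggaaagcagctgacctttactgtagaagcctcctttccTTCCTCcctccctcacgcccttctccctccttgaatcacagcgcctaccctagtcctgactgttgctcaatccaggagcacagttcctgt
Cx3cl1: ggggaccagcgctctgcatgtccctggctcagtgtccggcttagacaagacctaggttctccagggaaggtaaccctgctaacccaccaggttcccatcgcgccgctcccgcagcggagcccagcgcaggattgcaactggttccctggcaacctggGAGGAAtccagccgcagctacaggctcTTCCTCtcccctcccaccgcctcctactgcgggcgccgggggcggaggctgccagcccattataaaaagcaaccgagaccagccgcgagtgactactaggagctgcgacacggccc
These letters were found in 3 of the 6 promoters, which are the 3 shown, and not in those of Csf1, Cx3cr1 and P2ry12. Of all 32851 promoters of the table, 28.3% held them on either strand. The longer GAGGAAGT, which contains them (reverse complement ACTTCCTC), was in 0 of the 6 and in 3.20% of all. A match describes the letters only, and the neuronal Cx3cl1 promoter held 2.

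Nuclei were clustered without the 9 genes and named from other markers. Of 388 microglia-like nuclei, the 12 microglia markers were all detected and summed to 11332 CPM, against 61.8 CPM in all other nuclei. The class was drawn by these markers and by low levels of neuronal and glial ones, so such sums describe it and cannot check it. Border macrophage markers summed to 707 CPM there against 6.79 elsewhere, with 6 of 8 detected and Pf4 and Cbr2 at 0. Whether border macrophages lie in the class was not tested. Monocyte markers summed to 8.68 CPM against 0.318 elsewhere, and T cell markers to 4.34 against 18.1. Of these, 2 of 6 monocyte markers and 2 of 5 T cell markers had any UMI, with Ly6c2, S100a8, S100a9, Chil3, Cd3e, Cd3g and Cd3d at 0. Neuron markers summed to 1269 CPM in these nuclei against 7499 elsewhere, and astrocyte markers to 1158 CPM against 380, with Aqp4, Gja1 and Gfap at 0. Another 579 nuclei held microglia markers together with those of other cell types and were kept apart as a mixed class.

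Csf1r was a gene of microglia in these counts. The microglia-like nuclei held 36.6% of its 1622 UMIs, the mixed class 34.3% and neuronal nuclei 22.4%, although neuronal nuclei held 84.5% of all UMIs. Siglech was spread the same way, with 42.3%, 33.5% and 17.1% of 1187 UMIs. Tmem119 had 40.4% of 136 UMIs and Trem2 33 of its 110 UMIs in microglia-like nuclei.

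Cx3cr1 and P2ry12 were less confined. Cx3cr1 had 23.9% of 1484 UMIs in microglia-like nuclei and 44.3% in neuronal nuclei, and P2ry12 had 21.5% of 1289 and 48.9%. P2ry12 (chromosome 3, 59123682 to 59170429, mm39) lies wholly inside Med12l on the other strand, which stood at 310.5 CPM in neuronal nuclei. Whether reads were counted by strand is not stated, so the neuronal P2ry12 UMIs are uncertain. In CPM, the neuronal level of P2ry12 was 3.43 CPM against 601 CPM in microglia-like nuclei, and that of Csf1r was 1.98 against 1286 CPM.

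The ligands lay elsewhere. Neuronal nuclei held 83.0% of 3333 Il34 UMIs and 87.5% of 9075 Cx3cl1 UMIs, close to their share of all UMIs. Csf1 had 58.0% of 1855 UMIs in neuronal nuclei and 16.8% in oligodendrocyte-like nuclei. In microglia-like nuclei Il34 had 0 UMIs, which allows at most 8.00 CPM, Cx3cl1 had 4 and Csf1 had 7.

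**Figure D1:**
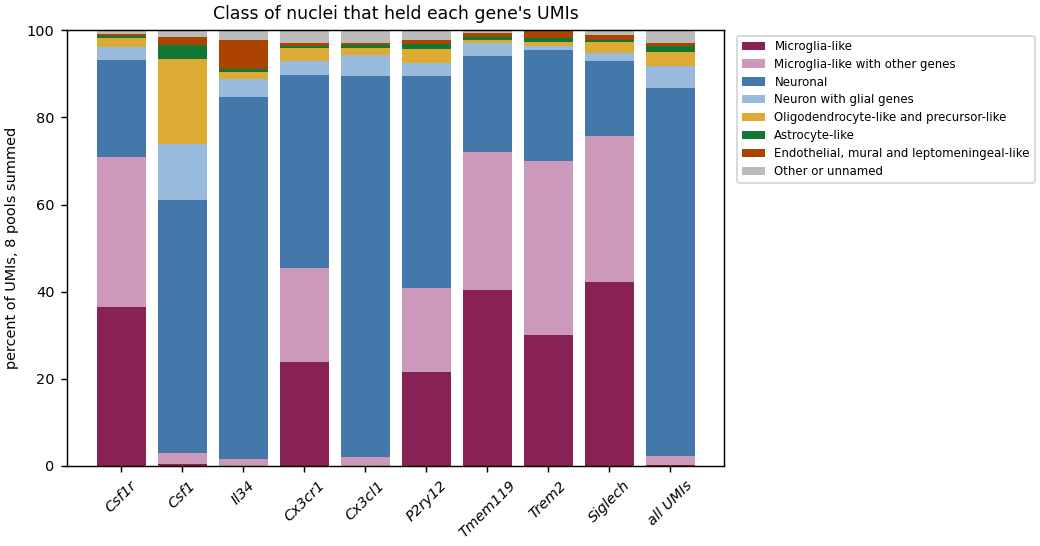
Percent of each gene's UMIs (y axis) held by each class of nuclei, the 8 pools summed, with all UMIs in the last bar. The 6 microglial genes rise above the share that microglia-like nuclei take of all UMIs, and Il34 and Cx3cl1 follow the neuronal share of 84.5%.

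When each nucleus was thinned to 500 UMIs, 45.4% of 313 microglia-like nuclei had a Csf1r UMI (39.8 to 51.1%, exact binomial). In dentate gyrus (DG)-like nuclei, taken as a reference, it was 0.102% of 8837, and whether this was free RNA was not tested. The median depth before thinning was 1149 and 1906 UMIs, and 75 and 1539 shallower nuclei were left out. Unthinned, the shares were 65.5% of 388 and 0.357% of 10376. Cx3cr1 was found in 34.2%, Siglech in 38.0% and P2ry12 in 30.03% of the thinned microglia-like nuclei, and Tmem119 and Trem2 in 5.75% and 3.51%.

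PLX5622 was compared with vehicle to learn what CSF1R inhibition does to these genes. The microglial genes were low in both PLX5622 pools and the ligands were not. Microglia-like nuclei numbered 41 of 8474 in Control-Vehicle and 68 of 7332 in Stress-Vehicle, but 0 of 7382 in Control-PLX5622, which allows a share of up to 0.0406%, and 1 of 7678 in Stress-PLX5622. In sums over all nuclei, fewer microglia and less RNA per microglia cannot be told apart.

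Csf1r, the receptor itself, stood at 5.69 CPM (220 UMIs) in Control-Vehicle and 14.1 CPM (213 UMIs) in Stress-Vehicle. In Control-PLX5622 it was 1.70 CPM (13 UMIs) and in Stress-PLX5622 1.19 CPM (9 UMIs). Both PLX5622 pools lay below all 6 others, of which Con-nIL-1R1-/- was lowest at 5.54 CPM. Csf1r was 5.55-fold lower with PLX5622 in the summed pools (3.62 to 8.95), 3.35-fold in control (1.92 to 6.39) and 11.8-fold in stress (6.08 to 26.1).

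In the fit of all 19815 genes over the 8 pools, the log2 difference of Csf1r was -2.60 (SE 0.37), with an adjusted p of 0.197 by edgeR. The threshold of 0.05 was passed by none of the 9 genes and by 0.0% of all genes, while 1338 genes (6.75%) and 5 of the 9 had an unadjusted p under 0.05. DESeq2 called 41 genes (0.207%), among them Csf1r (adjusted p = 9.2e-06) and Siglech (adjusted p = 0.00058). With the 4 diet pools fitted alone, edgeR called 21 of 16068 genes (0.131%), again with Csf1r and Siglech (adjusted p = 0.0423 for both).

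Siglech was at 4.06 and 9.83 CPM in the vehicle pools and at 1.05 and 1.33 CPM with PLX5622, which is 4.79-fold lower (2.98 to 8.20). Its log2 difference was -2.41 (SE 0.38, adjusted p = 0.197). As for Csf1r, no vehicle or genotype pool reached down to the PLX5622 pools.

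Cx3cr1, the fractalkine receptor, was at 5.53 and 10.6 CPM with vehicle and at 3.27 and 3.58 CPM with PLX5622, 2.03-fold lower (1.52 to 2.77), with a log2 difference of -1.12 (SE 0.27, adjusted p = 0.456). P2ry12 was at 4.68 and 5.74 CPM with vehicle and at 3.40 and 3.32 CPM with PLX5622, 1.48-fold lower (1.10 to 2.04). Its log2 difference was -0.56 (SE 0.28, adjusted p = 0.755). These are the 2 microglial genes with the largest neuronal share of UMIs, and their differences were smaller than those of Csf1r and Siglech.

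Tmem119 and Trem2 were sparse. Tmem119 had 14 and 19 UMIs in the vehicle pools and 1 and 2 with PLX5622, a ratio of 3.10-fold lower whose interval (0.973 to 15.8) includes no difference. Trem2 had 9 and 18 UMIs with vehicle and 0 and 1 with PLX5622, 7.62-fold lower with an interval of 1.26 to 312. In all, 6 of the 9 genes had both PLX5622 pools below all 6 other pools, and 8.02% of all genes did.

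The ligands stayed near their vehicle level. Csf1 was at 8.84 and 10.95 CPM with vehicle and at 7.58 and 13.01 CPM with PLX5622, a log2 ratio of 0.12 (-0.15 to 0.38). Il34 was at 16.5 and 17.4 CPM against 16.9 and 17.8 CPM, a log2 ratio of 0.05 (-0.15 to 0.25). Cx3cl1 was at 42.5 and 45.5 CPM against 43.6 and 43.4 CPM, a log2 ratio of 0.01 (-0.12 to 0.13). For these genes the counting intervals leave out a 1.5-fold difference in either direction, and the PLX5622 and vehicle pools overlapped for each of them.

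What remained of Csf1r with PLX5622 lay largely in neuronal nuclei, as did RNA at large. Neuronal nuclei held 6279102 of all 7651910 UMIs in Control-PLX5622 and 6178362 of 7534594 in Stress-PLX5622. Of the Csf1r UMIs, 9 of 13 in Control-PLX5622 and 8 of 9 in Stress-PLX5622 were in neuronal nuclei, against 61 of 220 and 36 of 213 in the vehicle pools. Within neuronal nuclei, Csf1r was at 1.90 and 2.79 CPM with vehicle and at 1.43 and 1.29 CPM with PLX5622, a log2 difference of -0.65 (SE 0.44, adjusted p = 0.887). Neuronal P2ry12 was at 3.09 and 2.09 CPM with vehicle and at 3.34 and 2.75 CPM with PLX5622. Neuronal Cx3cr1 was at 3.53 and 3.72 CPM against 2.87 and 3.24 CPM. None of the 7 genes tested in neuronal nuclei passed, where 0.0% of 18766 genes did.

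The 12 microglia markers, none of them among the 9 genes, summed to 72.1 and 134 CPM in the vehicle pools and to 50.8 and 60.5 CPM in the PLX5622 pools, in which 2 and 1 of the markers were at 0.

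**Figure D2:**
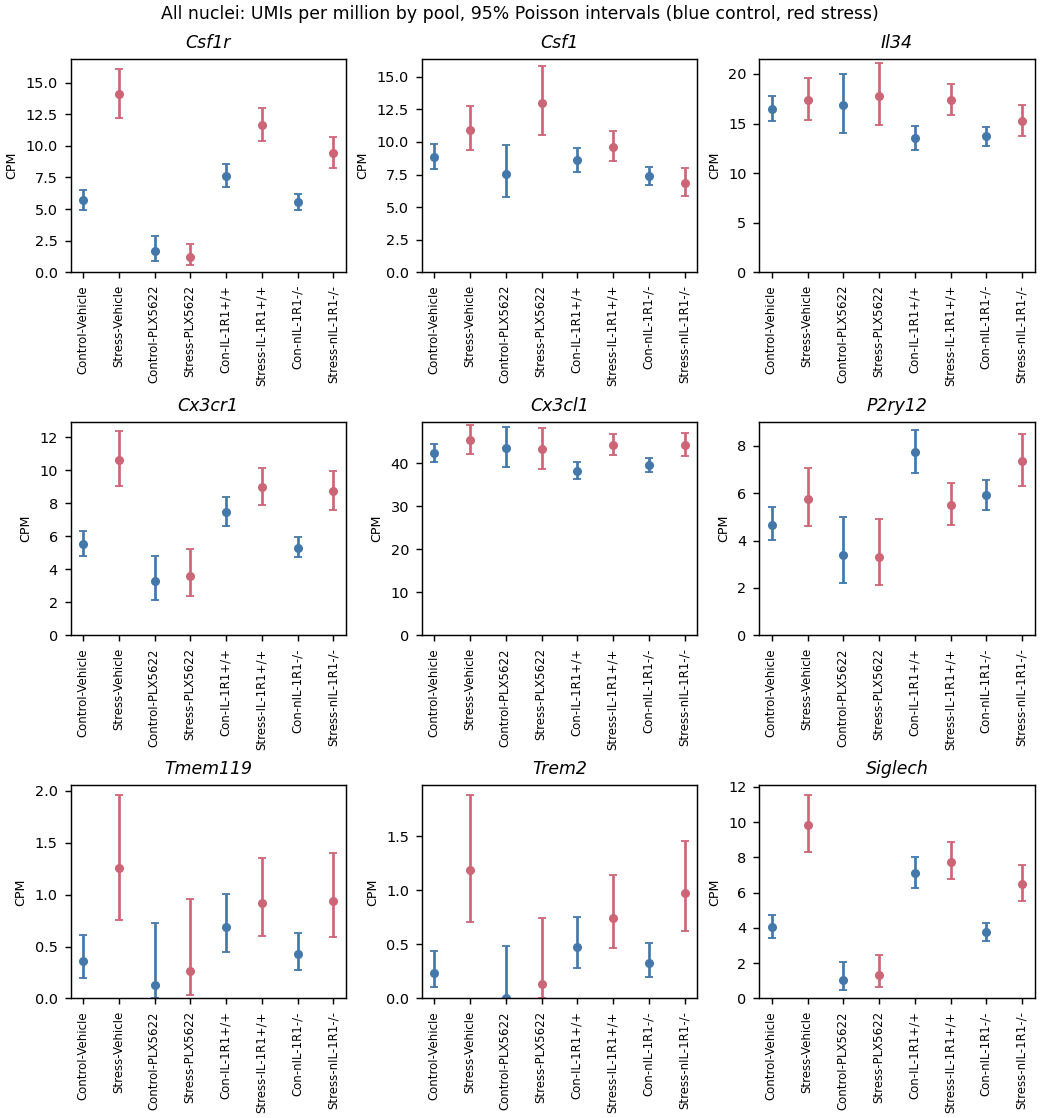
CPM of each gene over all nuclei (y axis, from 0) in the 8 pools, control in blue and stress in red, each pair of pools side by side with 95% Poisson intervals. Csf1r, Siglech, Cx3cr1, P2ry12, Tmem119 and Trem2 are lowest in the PLX5622 pools, whereas Il34 and Cx3cl1 differ little between pools.

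RSD was compared with control in the 4 pairs of pools that share diet or genotype, among them the diet pools used above. The stress pool was higher for most microglial genes in each pair that still held microglia, but none of the 9 genes passed an adjusted p of 0.05, which 65 of 19815 genes did (0.328%). DESeq2 also called 0 of the 9 (1.44% of all genes), and 5 of the 9 had an unadjusted p under 0.05 in edgeR, against 14.7% of all genes.

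Csf1r was at 5.69 CPM in Control-Vehicle and 14.1 in Stress-Vehicle, at 7.60 and 11.6 in the IL-1R1+/+ pair, and at 5.54 and 9.42 in the nIL-1R1-/- pair, control first. All 3 of these stress pools lay above all 3 control pools, and the share of all genes that do so was not counted. The stress pool was higher within each of these 3 pairs for 18.2% of all genes. The pairwise log2 ratios were 1.31 (1.03 to 1.58), 0.61 (0.38 to 0.85) and 0.76 (0.51 to 1.013), and in the PLX5622 pair the ratio was -0.51 on 22 UMIs (-1.91 to 0.83). The fitted log2 difference was 0.77 (SE 0.20, adjusted p = 0.137). Without the PLX5622 pair, where 129 of 19963 genes were called, it was 0.88 (SE 0.15, adjusted p = 0.0351). With no filter on low counts Csf1r was called too, with Siglech and Trem2, among 872 of 37385 genes.

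Siglech was at 4.06 and 9.83 CPM in the vehicle pair, 7.10 and 7.75 in the IL-1R1+/+ pair, 3.75 and 6.48 in the nIL-1R1-/- pair and 1.05 and 1.33 in the PLX5622 pair, control first. The stress pool was higher in 4 of 4 pairs, with a fitted log2 difference of 0.68 (SE 0.20, adjusted p = 0.174). Cx3cr1 was at 5.53 and 10.6, 7.47 and 8.96, 5.32 and 8.72, and 3.27 and 3.58 CPM in the same order. It too was higher in each stress pool, by 0.55 on the fitted log2 scale (SE 0.16, adjusted p = 0.186).

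Trem2 had 9 UMIs in Control-Vehicle and 18 in Stress-Vehicle, 18 and 21 in the IL-1R1+/+ pair, 19 and 24 in the nIL-1R1-/- pair and 0 and 1 in the PLX5622 pair. In CPM it was higher in each stress pool, with a fitted log2 difference of 1.47 (SE 0.37, adjusted p = 0.133). Tmem119 had 14 and 19, 26 and 26, 25 and 23, and 1 and 2 UMIs, with a log2 difference of 1.04 (SE 0.32, adjusted p = 0.189). Only the vehicle and nIL-1R1-/- ratios of both genes had intervals that left out 0.

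P2ry12 went both ways. In the IL-1R1+/+ pair it was at 7.73 CPM in control and 5.51 in stress (log2 ratio -0.49, -0.78 to -0.20), but in the nIL-1R1-/- pair at 5.91 and 7.34 (0.31, 0.04 to 0.58). The vehicle ratio was 0.30 (-0.09 to 0.67), and the fitted log2 difference was 0.00 (SE 0.17).

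Among the ligands, Cx3cl1 was at 38.3 and 44.3 CPM in the IL-1R1+/+ pair and 39.6 and 44.4 CPM in the nIL-1R1-/- pair, with a fitted log2 difference of 0.08 (SE 0.11, adjusted p = 0.757). Il34 was higher in each stress pool, by at most 0.36 on the log2 scale (0.18 to 0.55, 13.5 against 17.4 CPM in the IL-1R1+/+ pair), with a fitted log2 difference of 0.14 (SE 0.12, adjusted p = 0.628). The fitted log2 difference of Csf1 was 0.22 (SE 0.15, adjusted p = 0.515), from a ratio of 0.78 (0.30 to 1.27) in the PLX5622 pair to -0.11 (-0.37 to 0.16) in the nIL-1R1-/- pair. Across the 9 genes, 5 were higher in stress in 4 of 4 pairs, as were 13.5% of all genes, and 7 in the 3 pairs without PLX5622, as were 18.2%.

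The microglia markers summed to 72.1 and 134 CPM in the vehicle pair, 94.5 and 108 in the IL-1R1+/+ pair, 60.0 and 117 in the nIL-1R1-/- pair and 50.8 and 60.5 in the PLX5622 pair, higher in stress each time. Endothelial markers were also higher in each stress pool, from 33.9 to 98.2 CPM in control and from 98.1 to 213 CPM in stress. Border macrophage markers, of cells that also express Csf1r, summed to 7.39 and 12.9, 6.43 and 9.99, 6.22 and 12.4, and 7.06 and 9.95 CPM in the same order, again higher in stress each time. Monocyte markers (0.0775 to 0.653 CPM in control, 0.356 to 1.06 in stress), mural markers (10.3 to 14.1 and 13.5 to 34.0) and astrocyte markers (327 to 441 and 410 to 666) were higher in the stress pool of each pair too. Neuron markers were higher in the stress pool of each pair as well (6971 to 7476 CPM in control, 7643 to 8064 in stress). Oligodendrocyte precursor markers were lower in each (1353 to 1445 and 1119 to 1402). The part of any of these cells in the differences above was not tested.

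Whether RSD acted differently with PLX5622 or with neuronal IL-1R1 loss was asked with interaction terms. The RSD difference of Csf1r in the PLX5622 pair minus that in the others was -1.55 (SE 0.62, adjusted p = 0.402), and 4 genes (0.0188%) were called, none of the 9. For nIL-1R1-/- minus the others it was -0.06 (SE 0.43), and edgeR called none of the 9 and 0.0% of all genes, with 892 genes at an unadjusted p under 0.05.

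Between genotypes, none of the 9 genes passed in edgeR and 0.0% of all genes did, with 801 genes (4.04%) at an unadjusted p under 0.05 and 16 (0.0807%) called by DESeq2, none of the 9. Siglech had the lowest p of the 9, with 7.10 and 7.75 CPM in the IL-1R1+/+ pools against 3.75 and 6.48 CPM in the nIL-1R1-/- pools and a log2 difference of -0.54 (SE 0.25, adjusted p = 1.00). Csf1r was at 7.60 and 11.6 CPM against 5.54 and 9.42 CPM, a log2 difference of -0.32 (SE 0.25). The IL-1R1+/+ pair was uneven in neuronal content. A neuronal cluster led by Gata3 held 1542 of 7554 nuclei in its control pool, but 63 of 5858 in its stress pool. Medium spiny-like neurons numbered 1 and 277, control first. Outside this pair the cluster held 19 to 134 nuclei per pool and the medium spiny-like class 0 to 16. Other pairs were uneven as well. In a coarser clustering (resolution 0.5) an Igfn1-led cluster held 157 and 848 nuclei in the vehicle pair, control first. It held 412 and 153 in the PLX5622 pair, 43 and 493 in the IL-1R1+/+ pair and 62 and 489 in the nIL-1R1-/- pair. Neurons of no named class were 24.3% and 28.3% of nuclei in the vehicle pair and 47.3% and 30.2% in the PLX5622 pair. Such unevenness enters the sums over all nuclei, here, with PLX5622 and under RSD, and its part was not tested.

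Next, the share of microglia-like nuclei was compared. It was 0.484% in Control-Vehicle and 0.927% in Stress-Vehicle, 1.23% and 1.04% in the IL-1R1+/+ pair, and 0.445% and 1.57% in the nIL-1R1-/- pair. In the PLX5622 pair it was 0 against 1 nucleus. The share was higher in stress in 3 of 4 pairs, with a mean log2 ratio of 1.006 (SD 0.91) and a two-sided exact permutation p of 0.25, where 4 pairs can give no less than 0.13. With 0.5 added to each count before the log, the PLX5622 pair entered this mean at 1.53. Without sublibrary 1 the mean was 0.597 with 2 of 4 pairs higher. With the mixed class added, the shares were 1.89% and 1.90%, 2.42% and 3.04%, and 1.84% and 2.89%, and 0.122% and 0.0391% in the PLX5622 pair. The log2 ratio was then above 0 in 3 of 4 pairs and the mean was -0.13, through the -1.50 of the PLX5622 pair, which had 9 and 3 such nuclei.

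**Figure D3:**
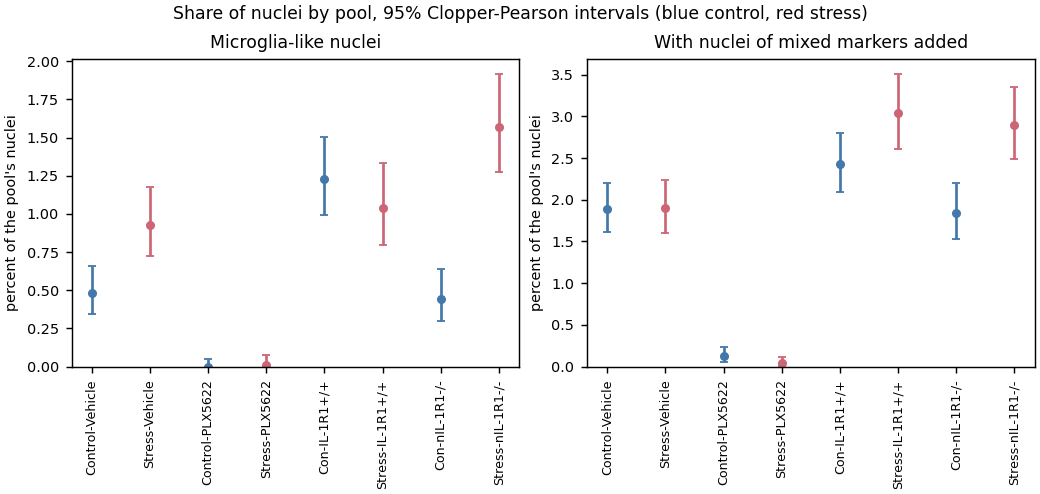
Percent of each pool's nuclei that were microglia-like (left) and with the mixed class added (right), with 95% Clopper-Pearson intervals, control in blue and stress in red. Both PLX5622 pools sit at or near 0, and the vehicle pair differs in the left panel (0.484% and 0.927%) but not in the right (1.89% and 1.90%).

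Within microglia-like nuclei, the 6 pools without PLX5622 could be compared, and there the receptor did not separate stress from control. Of the 9 genes, 4 passed the filter on low counts, none of them was called, and 6 of 2037 genes were (0.295%), with 3 (0.147%) by DESeq2, which also called none of the 4. An unadjusted p under 0.05 was found for P2ry12 alone of the 4 and for 6.63% of all genes. The Stress-PLX5622 nucleus held 0 UMIs of Csf1r, so no test with PLX5622 was made.

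Csf1r was at 1473 CPM in Control-Vehicle and 1374 in Stress-Vehicle, at 1220 and 1394 in the IL-1R1+/+ pair and at 1460 and 1098 in the nIL-1R1-/- pair. The groups overlapped, with a log2 difference of -0.12 (SE 0.21, adjusted p = 0.938). Cx3cr1 was at 736 and 994, 725 and 740, and 730 and 723 CPM, a difference of 0.11 (SE 0.24, adjusted p = 0.963).

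P2ry12 varied most of the 4. It was at 335 and 482 CPM in the vehicle pair, at 796 and 469 in the IL-1R1+/+ pair and at 1226 and 471 in the nIL-1R1-/- pair. The log2 ratios were 0.53 (-0.39 to 1.51), -0.76 (-1.35 to -0.20) and -1.38 (-1.97 to -0.79), and the fitted difference was -0.71 (SE 0.29, adjusted p = 0.594). Without the vehicle pair, where 26 of 2417 genes were called, it was -1.10 (SE 0.29, adjusted p = 0.0156), so that this call rests on which pairs are kept.

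Siglech was at 1116 and 1213 CPM in the vehicle pair, 1255 and 1246 in the IL-1R1+/+ pair and 1382 and 636 in the nIL-1R1-/- pair. Stress-nIL-1R1-/- stood below the other 5 pools (log2 ratio to its control -1.12, -1.65 to -0.58), and the fitted difference was -0.34 (SE 0.25, adjusted p = 0.808). Tmem119 had 4 and 9, 14 and 12, and 3 and 13 UMIs, and Trem2 had 0 and 9, 9 and 3, and 1 and 11, too few for the fit. Trem2 thus had more UMIs in the stress pool of the vehicle and nIL-1R1-/- pairs and fewer in that of the IL-1R1+/+ pair.

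In the mixed class, which holds RNA of other cell types as well, Csf1r was at 100.3 CPM in Control-Vehicle and 266 in Stress-Vehicle, at 115 and 182 in the IL-1R1+/+ pair and at 83.6 and 131 in the nIL-1R1-/- pair. With these nuclei added to the microglia-like ones the RSD differences turned to 0.92 for Csf1r (adjusted p = 0.245), 0.73 for Siglech (adjusted p = 0.494) and 0.27 for P2ry12 (adjusted p = 0.894). The mixed class held 777874 and 247986 UMIs in the vehicle pair, control first. It held 653913 and 859475 in the IL-1R1+/+ pair and 1412076 and 471768 in the nIL-1R1-/- pair. The microglia-like nuclei held 44808 and 68427, 113133 and 81034, and 38351 and 114757 in the same order. The microglia-like part of the joined sums thus differed between pools, so these differences give no direction within microglia.

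**Figure D4:**
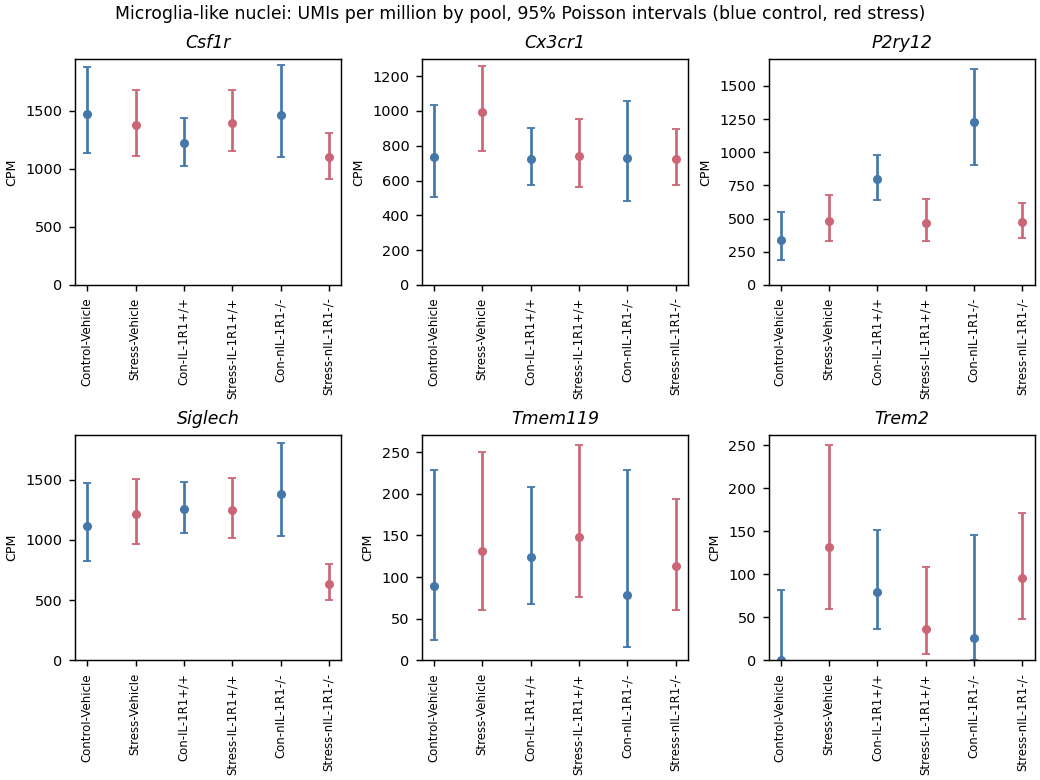
CPM of 6 genes within microglia-like nuclei (y axis, from 0) in the 6 pools without PLX5622, control in blue and stress in red, with 95% Poisson intervals. Csf1r and Cx3cr1 overlap between stress and control, P2ry12 is highest in Con-nIL-1R1-/- (1226 CPM) and Siglech lowest in Stress-nIL-1R1-/- (636 CPM).

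The sources of the ligands were ordered by class. The mean log2 CPM over the 8 pools, with 0.5 UMI added to each count, set the order. The added 0.5 raises low counts most in shallow classes, such as endothelial and mural-like nuclei with 16270 UMIs in Control-PLX5622. Neighbouring classes were compared on the same values over the 8 pools. The test was a two-sided exact permutation test with sign flips, adjusted over the 8 neighbours of each gene. Of 24 pairs of neighbours among 9 classes, 4 passed an adjusted p of 0.05. The smallest p that 8 pools can give is 0.0078, which stays above 0.05 after adjustment where 1 pair alone of a gene reaches it. The CPM given for a class below is over the 8 pools summed.

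Csf1 (chromosome 3, 107648364 to 107667806, mm39) was highest in oligodendrocyte-like nuclei, at 131 CPM (117 to 147), from 115 CPM in Stress-nIL-1R1-/- to 198 CPM in Control-PLX5622. All 8 pools were above the next class, endothelial and mural-like nuclei, at 23.6 CPM (adjusted p = 0.0312). Astrocyte-like nuclei followed at 19.8 CPM and DG-like neurons at 14.7 CPM, and these neighbours did not differ beyond their spread. Oligodendrocyte precursor-like nuclei at 12.4 CPM were above the other neurons at 5.35 CPM in 8 of 8 pools (adjusted p = 0.0312).

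Of the neuronal classes in the order, DG-like nuclei had the highest level of Csf1. This ranks CPM and not shares of Csf1 UMIs, of which the other neurons also held a part. DG-like nuclei ranged from 9.08 to 17.9 CPM between pools with a median of 15.1, CA2/3-like nuclei from 2.22 to 6.53, CA1-like nuclei from 1.54 to 8.89 and inhibitory (INH)-like nuclei from 1.254 to 7.67. The other neurons ranged from 3.61 to 7.08. The lowest DG-like pool, Control-PLX5622 with 7 UMIs, was above the highest pool of each of these classes. Cajal-Retzius-like nuclei, 15 to 36 per pool and left out of the order, ranged from 0 to 52.4 CPM with a median of 3.20.

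Il34 (chromosome 8, 111423928 to 111532584, mm39) was highest outside neurons. Leptomeningeal-like nuclei held 134 CPM (104 to 170) and endothelial and mural-like nuclei 114 CPM (96.7 to 134), on 68 and 150 UMIs; the first had 11 to 43 nuclei per pool and was left out of the order. Between pools the endothelial and mural-like level ran from 0 in Control-PLX5622, which had 20 such nuclei, to 283 CPM in Stress-Vehicle.

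Among neurons Il34 was at 24.4 CPM in CA2/3-like, 23.6 in INH-like, 12.1 in CA1-like and 2.38 CPM in DG-like nuclei, of these the class with the highest Csf1 level. The highest DG-like pool (5.19 CPM) lay below the lowest CA1-like pool (7.27 CPM). The INH-like cluster led by Crhbp and Sst, a neuropeptide of a class of interneurons, reached 33.8 CPM (30.6 to 37.3). For Il34 no neighbours passed the test (smallest adjusted p = 0.0625), although CA2/3-like nuclei were above the other neurons in 8 of 8 pools (mean log2 difference 0.75, SD 0.30, exact p = 0.0078). The annotated gene overlaps Vac14 (39.3 CPM in neuronal nuclei) and Mtss2 (30.6 CPM) on the other strand, so its neuronal level is uncertain.

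Cx3cl1 (chromosome 8, 95498637 to 95509055, mm39) was spread over neurons. It was at 50.1 CPM in the other neurons, 47.7 in CA1-like, 38.9 in DG-like, 34.6 in INH-like and 28.3 CPM in CA2/3-like nuclei. Endothelial and mural-like and oligodendrocyte precursor-like nuclei stood between INH-like and CA2/3-like nuclei in the order. Their medians over pools were 24.3 and 29.9 CPM, against 28.9 CPM in CA2/3-like nuclei, and these neighbours did not differ beyond their spread. CA1-like nuclei were above DG-like nuclei in 8 of 8 pools (mean log2 difference 0.36, SD 0.22, adjusted p = 0.0312). Oligodendrocyte-like nuclei were lowest of the 9 classes at 5.49 CPM, below astrocyte-like nuclei at 21.2 CPM in 8 of 8 pools (adjusted p = 0.0312).

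**Figure D5:**
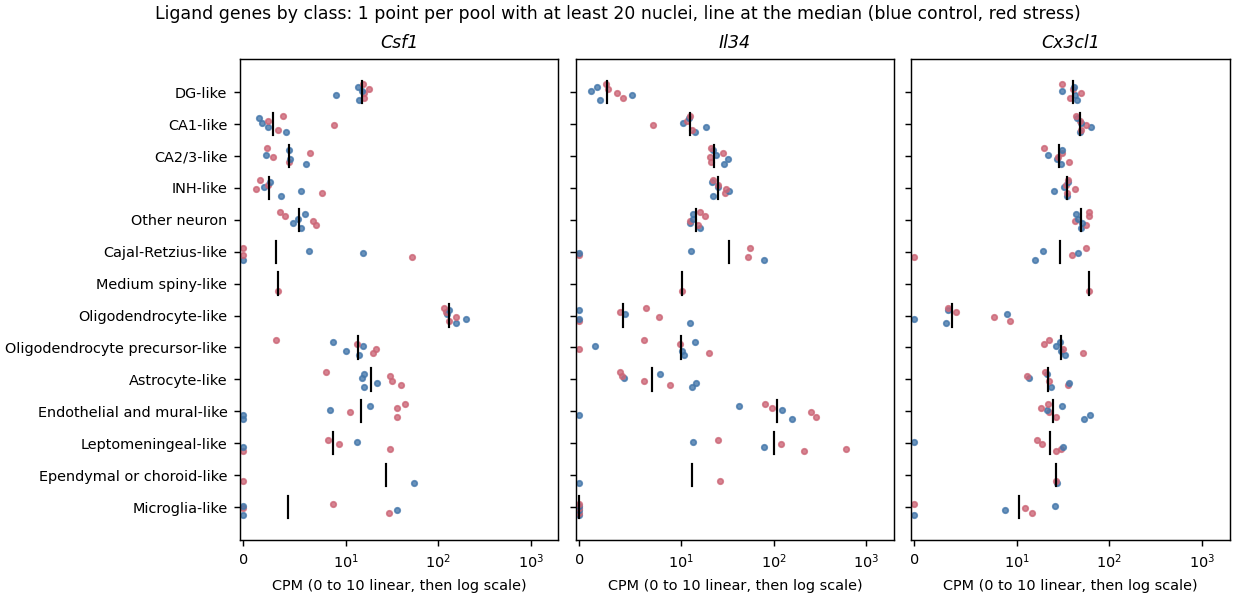
CPM of Csf1, Il34 and Cx3cl1 (x axis, linear to 10 and logarithmic above) by class of nuclei, 1 point for each pool with at least 20 nuclei of the class, control in blue and stress in red, and a line at the median. Csf1 stands out in oligodendrocyte-like nuclei and Il34 in endothelial and mural-like nuclei. Cx3cl1 is spread over the neuronal classes, of which CA2/3-like nuclei (median 28.9 CPM) lie beside oligodendrocyte precursor-like nuclei (29.9 CPM).

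Neither RSD nor PLX5622 gave a call for any of the 9 genes in a neuronal class. Under RSD the share of all genes called was 0.0853% in DG-like, 0.00818% in CA1-like, 0.0259% in CA2/3-like, 0.0321% in INH-like and 0.016% in all neuronal nuclei, and with PLX5622 it was 0.119%, 0.0%, 0.0%, 0.0643% and 0.0%. The genes that passed the filter on low counts were 5, 5, 4, 6 and 7 of the 9. DESeq2 called none of them, and none had an unadjusted p under 0.05 in edgeR. All neuronal nuclei include the Gata3-led cluster and the medium spiny-like neurons that were uneven in the IL-1R1+/+ pair, as given above. Different clusters held the CA1-like, CA2/3-like and DG-like classes in stress and control of the diet pools. A CA1-like cluster with a median of 622 UMIs held 1152 of 1425 CA1-like nuclei in Stress-Vehicle and 1340 of 1440 in Stress-PLX5622, against 71 of 1332 in Control-Vehicle and 210 of 627 in Control-PLX5622. A CA2/3-like cluster held 447 of 732 and 412 of 507 in stress against 17 of 907 and 10 of 579 in control, and a DG-like cluster with a median of 714 UMIs held 946 of 1487 and 1315 of 1445 against 611 of 1735 and 831 of 995. At resolution 0.5 a cluster of other neurons (scores of 0.37 for CA1 and 0.35 for CA2/3) held 1720 and 1807 nuclei of the stress pools, vehicle first. The CA1-like clusters there held 270 and 8 nuclei of Stress-Vehicle and 75 and 22 of Stress-PLX5622. The CA2/3-like clusters held 193 and 83, and 48 and 17. The CA1-like and CA2/3-like levels given for these pools thus rest on the main clustering.

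The DG-like level of Csf1 was 13.7 and 15.8 CPM in the vehicle pair, 14.8 and 17.9 in the IL-1R1+/+ pair, 13.5 and 15.4 in the nIL-1R1-/- pair and 9.08 and 15.7 in the PLX5622 pair. The stress pool was higher in 4 of 4 pairs, with a log2 difference of 0.27 (SE 0.18, adjusted p = 0.608). The INH-like level of Il34 was 21.8 and 29.995, 24.6 and 24.7, 21.3 and 22.0, and 32.5 and 30.1 CPM in the same order, with a difference of 0.10 (SE 0.17). With PLX5622, Csf1 in DG-like nuclei differed by -0.19 (SE 0.34), Il34 in INH-like nuclei by 0.38 (SE 0.28) and Cx3cl1 in CA1-like nuclei by 0.32 (SE 0.21) on the log2 scale. In oligodendrocyte-like nuclei, a class taken up after its Csf1 level had been seen, the log2 difference of Csf1 was -0.16 (SE 0.21) under RSD and 0.25 (SE 0.36) with PLX5622, where 0.335% and 0.0% of 5377 genes were called.

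Of the genes near these in function, the list of 20 other homeostatic microglia genes had 17 above 0 and 3 below on the log2 scale under RSD, 10 of them with an unadjusted p under 0.05 (14.7% of all genes) and 1 called (0.328%). The median was 0.44, against -0.0027 over all genes. The called gene was Entpd1, an ectonucleotidase that breaks down extracellular ATP and is known from microglia and endothelium. It was at 8.24 and 13.9 CPM in the vehicle pair, 10.6 and 15.4 in the IL-1R1+/+ pair, 6.77 and 16.0 in the nIL-1R1-/- pair and 4.57 and 8.36 in the PLX5622 pair, and rose by 0.82 on the log2 scale (SE 0.14, adjusted p = 0.0460). This call ended without the vehicle pair and without the pairing of the pools, where 0 genes were called. With PLX5622 all 20 were below 0, 12 had an unadjusted p under 0.05 (6.75% of all genes) and 0 were called by edgeR, with a median of -1.22 against 0.0071 over all genes.

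Genes that signal downstream of CSF1R and TREM2 (15 of 16 tested) had a median log2 difference of 0.71 under RSD, with 14 above 0 and 10 at an unadjusted p under 0.05 (14.7% of all genes), and of -0.97 with PLX5622, with 14 below 0 and 9 at that level (6.75% of all genes). None was called in either. The list of TREM2-dependent genes of reactive microglia (11 of 16 tested) had medians of 0.11 and 0.10, and the related receptor tyrosine kinases with their ligands (8 of 8) medians of 0.09 and 0.00, with no call. The proteases and alternative receptors of the ligands (4 of 5) had medians of -0.05 and 0.08 and no call. Within microglia-like nuclei the medians under RSD were -0.03 for 14 homeostatic and 0.01 for 13 signalling genes, and none was called.

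Across 13 named classes, the genes with the pattern most like Csf1r were Cd84 (Pearson r = 0.994), Arhgap45 (0.978), itself a marker used to name microglia, and Itgam (0.977). For Csf1 they were Pgap2 (0.945), Stxbp3 (0.939) and Tspan15 (0.915), for Il34 Adgra2 (0.909), Gm49936 (0.899) and Iqgap1 (0.894), and for Cx3cl1 Trerf1 (0.978), Myh10 (0.946) and Fcho1 (0.935). The classes share the same 8 pools and differ in depth, so these values are a description.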

How the data were processed

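Single nuclei were barcoded by split-pool rounds into sublibraries. The study's methods speak of 8, and 4 were analysed here, each with nuclei of all 8 pools. The authors deposited unscaled UMI counts for each gene in each nucleus, which the Parse software produced on the mm39 genome; the submitters' processing notes also name Seurat 4.1.1. The gene annotation and any use of strand in counting are not given in the sources used here. Each nucleus took its pool from the authors' table of nuclei and the treatment protocol in the labels. Of 56748 gene IDs, 56017 were found in GENCODE vM39, the source of coordinates. The 9 genes and all gene lists were chosen with earlier results of these data known.

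Counts were log-normalized, and 2000 variable genes without the 9 genes and lists gave 30 principal components for Leiden clustering at resolution 1.0 (leidenalg 0.10.2, Python 3.11.15). Clusters were named from fixed markers, where at least 3 reached 0.2 of the highest cluster and the best score was 1.25 times the second. Endothelial and mural were joined where their scores were close. Immune clusters were instead clustered again by themselves. A subcluster was mixed where markers of another cell type reached on average 0.25 of their highest cluster outside the immune ones. Of the rest, those with a microglia score of at least 0.6 were microglia-like. The naming thresholds were revised after the cluster tables had been seen and before the 9 genes were compared between groups. No doublet caller was run; nuclei above the 95th percentile of UMIs were left out as an alternative.

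UMIs were summed per pool and class, since nuclei are not replicates; for that reason the authors' test on nuclei was not used. Sums were fitted with edgeR 4.0.16 (TMM, filterByExpr, quasi-likelihood test, R 4.3.3) with RSD and the 4-level arm (diet or genotype) as terms, and p-values were adjusted over all genes tested (Benjamini-Hochberg). The arm pairs control with stress by design. DESeq2 1.42.0, other scalings, filters, clusterings and left-out sublibraries or pairs were alternatives. CPM has exact Poisson, shares exact Clopper-Pearson and ratios conditional binomial 95% intervals (scipy 1.17.1). On simulated counts with known changes, the RSD fit of 19815 genes recovered 78% of genes changed by a log2 of 1, the PLX5622 fit 43% and 86% at 1 and 2, and the microglia-like fit of 2037 genes 46% and 90%. Each of these percentages is over all changed genes together, and recovery at the UMI counts of the 9 genes was not tested. Besides the 9 genes, the text names up to 4 called genes of each list and the 3 genes most like Csf1r, Csf1, Il34 and Cx3cl1.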

Additional observations from a re-analysis of the deposited data

Results flagged for a closer look

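Of 27 groups of 4 tested for a value far from the rest, 2 were flagged, where chance flags about 1 in 20. Il34 over all nuclei was at 15.2 CPM in Stress-nIL-1R1-/-, below the other 3 stress pools at 17.4 to 17.8 CPM. P2ry12 over all pools was at 6.32 CPM in sublibrary 4, above the other 3 sublibraries at 5.63 to 5.72 CPM.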

How the results depend on the processing

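The comparisons over all nuclei called 65 genes for RSD and 0 each for PLX5622 and genotype. RSD called 285 with DESeq2, 872 with no filter on low counts and 0 with no replicate block, the block being the 4 pairs of pools that share diet or genotype. Leaving out 1 pair or sublibrary gave 0 (without the vehicle pair) to 129 (without the PLX5622 pair). PLX5622 called 41 with DESeq2, 203 with no filter, 21 with the 4 diet pools alone and 1 without nuclei above the 95th percentile of UMIs, and 0 to 1 without 1 sublibrary. Genotype called 16 with DESeq2, 198 with no filter and 14 with the 4 genotype pools alone. RSD in microglia-like nuclei called 6 genes, and 3 with DESeq2, 11 at resolution 0.5, 11 with 15 principal components, 3 with the mixed class kept and 2 to 26 without 1 pair or sublibrary. The mean log2 ratio of the microglia-like share, 1.006, became -0.051 over nuclei with at least 2 microglia marker UMIs and -0.13 with the mixed class. Microglia-like nuclei with PLX5622, 1 in all, were 0 to 1 without 1 sublibrary and 12 with the mixed class. Nuclei with at least 2 microglia marker UMIs numbered 23 in Control-PLX5622 and 42 in Stress-PLX5622, against 329 in Control-Vehicle and 214 in Stress-Vehicle. Of the 24 neighbours in the order of classes, 4 were called, and 2 to 4 without 1 sublibrary, 3 without the deepest nuclei and 6 at resolution 0.5. The 45.4% of nuclei with Csf1r was 29.8% at 300 UMIs.

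Signs that turned were near 0 or came with the mixed class, the cause of which was not tested. P2ry12 over all nuclei under RSD was -0.0029 with DESeq2, -0.024 with no filter, -0.011 with no replicate block, -0.016 without the deepest nuclei, -0.032 with pools thinned to the shallowest, and -0.12 to 0.18 without 1 pair or sublibrary. With PLX5622, Cx3cl1 was -0.013 without TMM, and Csf1 was -0.0024 to 0.24 without 1 sublibrary. In microglia-like nuclei, the mixed class gave RSD differences of 0.92 for Csf1r, 0.27 for P2ry12 and 0.73 for Siglech. Without 1 pair or sublibrary the ranges were -0.27 to 0.065 for Csf1r, -0.087 to 0.31 for Cx3cr1 and -0.53 to 0.017 for Siglech. With no filter, RSD calls were gained by Csf1r, Siglech and Trem2, among 872 of 37385 genes. PLX5622 calls were gained by Csf1r, Siglech and Cx3cr1, among 203 of 37385. In neuronal classes the 9 genes were called under none of the alternatives. The interaction terms, the oligodendrocyte-like fit, every value with the mixed class kept, and the microglia-like fits without 1 pair or without the block were added after seeing the data.

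Depth limits the PLX5622 pools most, where Csf1r rests on 22 UMIs and Trem2 on 1.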
